A study of Mus musculus with 6 samples.

Results

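The Prss genes, a family named for the serine proteases, were followed through germ cell development in the mouse testis. Members were all genes of the count tables whose symbol is Prss followed by a digit. There were 40 among 32285 genes, and 37 had at least 1 unique molecular identifier (UMI, a tag that marks a single captured RNA molecule). Of the 40, 24 had at least 100 UMIs in staged germ cells and are described with values. Testes came from 8-week-old C57BL/6N mice (C57BL/6 wildtype in the labels) fed for 2 weeks on a diet high (HFD) or low (LFD) in fat, with no transgene in either group and 3 single-cell RNA libraries per diet. The study's methods give 3 mice per diet for the single-cell assay, and the labels do not tie a library to a mouse. The p-values measure the spread between these libraries. In all 6 libraries the diet in the deposited file name is the reverse of the diet in the label, and the study's own list of barcodes per library matches the file names. Groups are called by their labels here (the libraries labelled HFD, the libraries labelled LFD). Should the file names be right, each diet difference changes sign and its p-value stays.

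Serine proteases cut proteins with a serine that a histidine and an aspartate activate. Many Prss genes are transcribed only in the testis, where their products reach the acrosome, the surface of the sperm or the secretory pathway of the developing germ cell. Several family members have lost residues of the catalytic triad and are called pseudoproteases. PRSS37 and PRSS55 are known to be needed for maturation of the sperm surface protein ADAM3 and for the passage of sperm into the oviduct.

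The catalytic serine sits in a run of glycine, aspartate, serine, glycine and glycine, and the codons of this run were searched in frame in the longest coding sequence of each gene (GENCODE vM21, GRCm38). Of 39 members with a coding sequence, 25 held the run, against 0.697% of 21660 coding genes. Among the described members it was found in 13 of 23 and not found in the other 10, namely Prss23, Prss37, Prss38, Prss43, Prss45, Prss46, Prss50, Prss51, Prss54 and Prss58. No match says only that these letters are absent. On chromosomes 9 and 14 described members with and without the run lie side by side. Prss44 held it and its neighbours Prss43 and Prss45 did not, and all were highest in pachytene. Prss55 and Prss52 held it and Prss51 did not, and all were highest in elongating spermatids. Every described member highest in late spermatocytes held it. Of the 13 sites, those of Prss47, Prss48, Prss53 and Prss56 are not printed. Each of the others is given as 27 bases, 5′ to 3′ from the transcript, with the serine codon in capitals.
Prss36: tgccagggtgacTCTgggggaccgctg
Prss41: tgcagtggtgacTCAggaggacccttg
Prss44: tgccagggagatTCTgggggccccctg
Prss42: tgccagggagatTCTggaggcccgatg
Prss39: tgccgaggagacTCTgggggccccctg
Prss40: tgcgcaggagatTCTgggggccccctt
Prss21: tgctttggtgacTCGggaggacccttg
Prss52: tgccagggcgacAGTggaggagctctc
Prss55: tgccagggtgacAGTgggggaccgctt

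The serine codon began with TC in 11 of the 13 members and was AGT in Prss52 and Prss55. Both lie on chromosome 14, with Prss51 between them. Coding sequences of the 23 members ran from 714 bases in Prss37 to 2592 bases in Prss36. Prss23os is an antisense RNA and has none.

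Of the 40 members, 29 lay in 8 runs with under 100000 bases from one member to the next. A run of 6 genes on chromosome 9 (chr9:110798166-110864629, GRCm38, all on the plus strand) held Prss42, Prss44, Prss43, Prss45, Prss46 and Prss50 in this order. On chromosome 14 (chr14:64075438-64113755) Prss55 on the minus strand and Prss51 on the plus strand overlap, and Prss52 follows. Prss39 (plus strand) and Prss40 (minus strand) are neighbours on chromosome 1 (chr1:34498410-34560943). Prss23os (chr7:89510007-89511873) lies inside Prss23 on the opposite strand, so reads of the pair cannot be told apart where strand was not used in counting, which the sources used here do not state.

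The 6 libraries held 48939 cell barcodes and 39196921 to 95845514 UMIs each. A barcode was given a stage when it had at least 5000 UMIs and its UMIs of a marker list stood at least 2 times above the share in its library. No Prss gene was among the markers. This gave 1133 spermatogonia, 917 early meiotic prophase, 980 pachytene, 824 late spermatocyte, 1180 early round spermatid, 1938 later round spermatid and 2560 elongating spermatid barcodes, 9532 in all, of which 2797 lay within 20% of the required enrichment. Most markers were highest in their own class (10 of 10 in elongating spermatids, 11 of 12 in spermatogonia). In early meiotic prophase 8 of 11 were, and Prdm9, Tex15 and Scml2 of that list were highest in spermatogonia. Spermatogonia barcodes had a median of 1645 UMIs per 1000000 from their own list and 2521 from the prophase list. Barcodes of early meiotic prophase had 110 and 4949. In pachytene only 2 of 4 markers were highest in their own class. The median UMIs of pachytene barcodes ran from 7958 to 56450 across libraries. Sertoli (438), stromal (167, Leydig and peritubular cells included) and macrophage (252) barcodes were gated at 1000 UMIs. Both replicate 1 libraries stood apart, with haemoglobin at 0 and 0.0209 CPM (UMIs scaled to a total of 1000000 per library or stage) against 30.5 to 99.7 in the other 4, and with 10.0% and 10.5% of barcodes in elongating spermatids against 1.66% to 3.93%. Pairs of libraries shared 12 to 28 barcode sequences, at most 0.320% of the smaller library.

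Free RNA from broken cells enters droplets, so the level of each member in macrophages, which should lack it, serves as background. At a median of 2913 to 4768 UMIs per barcode and library, macrophages were shallower than elongating spermatids, at 12840 to 19580. Prss39 stood at 139 CPM in pooled macrophages (95% exact Poisson interval 116 to 164, counting error only), with a UMI in 32.9% of barcodes against 95.3% in late spermatocytes. Prss55 stood at 40.7 CPM, with a UMI in 14.3% of macrophages and 77.1% of elongating spermatids. Pachytene barcodes were deeper still, at 32657.5 UMIs against 3559.75 in macrophages (median over libraries). Prm1, a marker of elongating spermatids, stood at 7276 CPM in macrophages and at 974.6 CPM in pachytene. The macrophage level can thus overstate the background of deeper stages. Values at or below it are marked as such and are read neither as expression nor as its absence.

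Each member was placed in the 1 stage where its level was highest, so the sets cannot overlap, and some placements were close to ties. Taking the median over 6 libraries, 2 members were highest in spermatogonia, 2 in early meiotic prophase, 3 in pachytene, 7 in late spermatocytes, 1 in early round, 2 in later round and 7 in elongating spermatids. Late spermatocytes and elongating spermatids thus each held 29.2% of the described members. Among 17373 other genes with the same minimum of UMIs, 13.5% were highest in late spermatocytes, 11.7% in elongating spermatids and 28.5% in spermatogonia, against 8.33% of the members. These shares are a description. In 14 of 24 members the same stage led in all 6 libraries, and in 18 of 24 it also led in UMIs per barcode, a scale that does not divide by the depth of the stage.

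**Figure D1:**
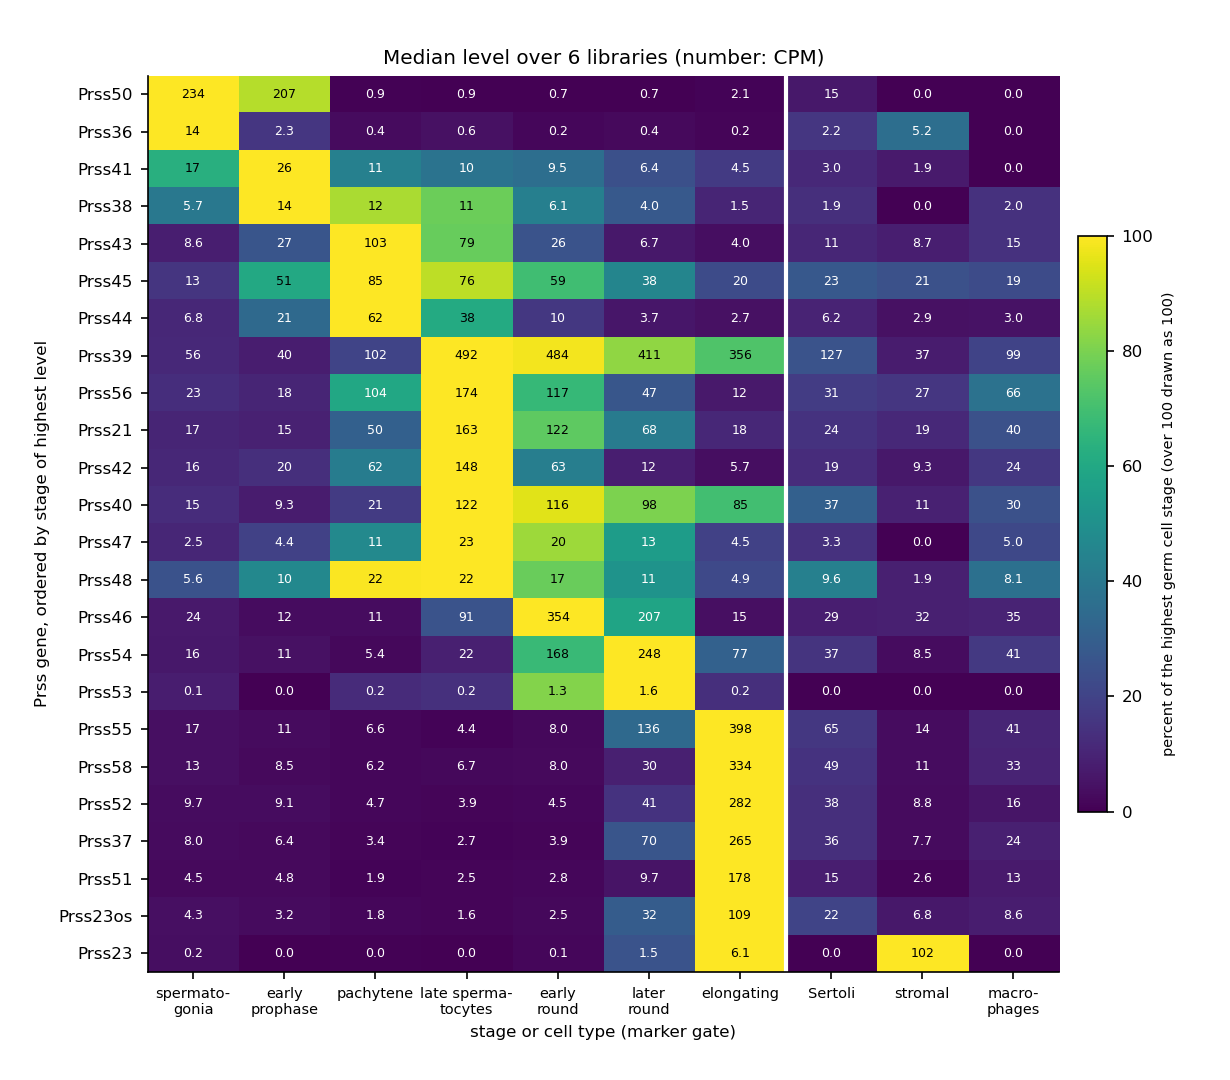
Median level of the 24 described Prss genes over 6 libraries, in CPM (numbers), by germ cell stage and, right of the white line, in 3 somatic cell types. Colour gives the percent of each gene's highest germ cell stage, and the bright cells run as a diagonal from Prss50, at 234 CPM in spermatogonia and 207 CPM in early meiotic prophase, to Prss55 at 398 CPM in elongating spermatids.

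All 6 libraries together gave 576186 Prss UMIs, 0.134% of the total. Summed over members, the median level was 544 CPM in spermatogonia (500 to 786), 577 in early meiotic prophase (415 to 610) and 706 in pachytene (529 to 858). It was 1517 CPM in late spermatocytes (1331 to 1592), 1632 in early round spermatids (1437 to 1691), 1507 in later round spermatids (1351 to 1648) and 2151 in elongating spermatids (2078 to 2336). The range in elongating spermatids did not overlap that of any earlier stage, but this holds per total UMIs only. Per barcode the family was highest in early round spermatids, at 65.7 UMIs, against 58.6 in later round and 42.9 in elongating spermatids. Prss50 supplied 36.4% of Prss UMIs in spermatogonia, Prss39 supplied 32.5% in late spermatocytes and Prss55 supplied 18.3% in elongating spermatids. UMIs of this kit are counted near the 3′ end of a transcript, so they carry no term for gene length.

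Spermatogonia and early meiotic cells carried Prss50, Prss36, Prss41 and Prss38. Prss50, which codes for testis-specific protease 50, was at 154 to 290 CPM in spermatogonia (median 234) and at 110 to 268 CPM in early meiotic prophase (median 207). These 2 stages overlapped, and the exact sign-flip test over 6 libraries did not separate them (p = 0.50, two-sided, where the smallest possible is 0.03125). In pachytene Prss50 stood at 0.372 to 1.84 CPM in every library, a log2 change of -7.40 ± 0.34 (SE; edgeR, adjusted over all genes). Which of the first 2 stages led in Prss50 depended on the processing. With the stricter gate and in UMIs per barcode (2.92 against 2.91) it was early meiotic prophase, and Leiden clusters gave 665 CPM there and 141 CPM in spermatogonia. No UMI of Prss50 was seen in 252 macrophages. Prss36, polyserase-2, was at 14.3 CPM in spermatogonia, with a wide range from 2.68 to 23.5, and fell by 2.27 ± 0.36 on the log2 scale into early meiotic prophase.

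Prss41 and Prss38 led in early meiotic prophase without being confined to it. Prss41 ran from 24.0 to 39.3 CPM there (median 26.3) and rose by 0.73 ± 0.16 (log2) from spermatogonia. Its level then fell by 1.02 ± 0.15 into pachytene by edgeR, but in UMIs per barcode pachytene was the higher stage, so this direction depends on the scale. Prss38 rose by 1.30 ± 0.23 to 14.2 CPM (4.92 to 19.4) and stood at 12.4 CPM in pachytene, which the exact sign-flip test did not separate from it (p = 0.969).

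Prss43, Prss45 and Prss44, 3 neighbours in the chromosome 9 run, had their highest stage in pachytene. Prss56, highest later, supplied the most Prss UMIs there, at 108 CPM over pooled pachytene barcodes. Prss43 and Prss44 belong, with Prss42 and Prss41, to the testis-specific serine proteases described from meiotic cells. Prss43 reached 93.2 to 132 CPM in pachytene (median 103), above its range of 66.6 to 86.9 in late spermatocytes. Prss44 reached 59.9 to 70.4 CPM (median 62.4), also above its range of 33.2 to 47.5 in late spermatocytes. In both genes all 6 libraries were higher in pachytene (exact sign-flip p = 0.03125, the smallest possible). Prss45 was at 84.9 CPM in pachytene and 76.4 in late spermatocytes, and 4 of 6 libraries were higher in pachytene (exact sign-flip p = 0.125). From early meiotic prophase to pachytene Prss43 rose by 2.28 ± 0.19, Prss44 by 1.72 ± 0.17 and Prss45 by 0.97 ± 0.17 on the log2 scale.

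The rest of the chromosome 9 run peaked elsewhere. Prss42 was highest in late spermatocytes, at 135 to 153 CPM (median 148), against 48.2 to 73.7 CPM in pachytene and 51.1 to 71.2 CPM in early round spermatids. It rose by 1.34 ± 0.15 (log2) into that stage and fell by 1.05 ± 0.15 after it. Prss46 was highest in early round spermatids, at 343 to 399 CPM (median 354), where 1179 of 1180 barcodes held a UMI of it. It stood at 7.79 to 17.1 CPM in pachytene, below its macrophage level of 49.0 CPM, and at 10.4 to 24.1 CPM in elongating spermatids. The 6 genes of the run thus had 4 different stages of highest level within 66464 bases, and Prss46 and Prss50 lie 1445 bases apart. Prss46 was highest in early round spermatids and Prss50 in the first 2 stages, which were not separated. Of the 6, the serine run was found in Prss42 and Prss44 only, printed above.

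**Figure D2:**
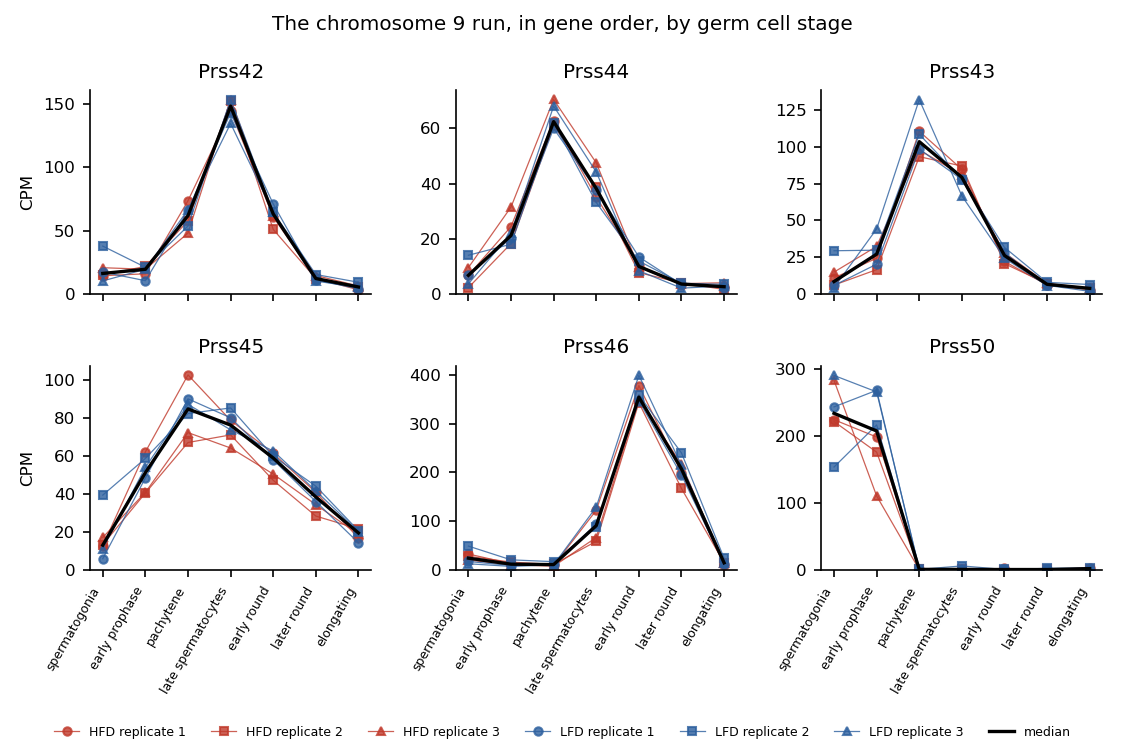
Level (CPM) of the 6 Prss genes of the chromosome 9 run across 7 germ cell stages, 1 panel per gene in genome order. Thin lines are the 6 libraries (red HFD, blue LFD as labelled) and the black line their median, whose top moves from late spermatocytes in Prss42 to pachytene in Prss44, Prss43 and Prss45, to early round spermatids in Prss46 and to spermatogonia in Prss50, where early meiotic prophase overlaps.

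Late spermatocytes held the highest median levels of 7 members. Prss39 and Prss40, which code for acrosomal proteases of sperm, moved in parallel. Prss39 was at 407 to 550 CPM in late spermatocytes (median 492) and 409 to 509 CPM in early round spermatids (median 484), and its neighbour Prss40 was at 98.1 to 134 CPM (median 122) and 104 to 125 CPM (median 116). The 2 stages were not separated in either gene (exact sign-flip p = 0.1875 and 0.375). Into late spermatocytes Prss39 rose by 2.44 ± 0.24 and Prss40 by 2.73 ± 0.19 on the log2 scale. Both stayed above their macrophage levels of 139 and 35.5 CPM to the end, at 356 and 85.0 CPM in elongating spermatids. For this last step edgeR called both higher (log2 0.59 ± 0.22 and 0.67 ± 0.17) while their CPM and UMIs per barcode were lower, so no direction is read from it.

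The 250 bases before the start of Prss39 and Prss40 (RefSeq, GRCm38.p6) are shown because these neighbours had the same course. AACTG or its reverse complement is in capitals. The windows share 19 bases in a row, GTGGGCGAGAGGGGTTCCC, which begin at base -57 in Prss39 and at -63 in Prss40.
Prss39 promoter, chr1:34498162-34498411, plus strand: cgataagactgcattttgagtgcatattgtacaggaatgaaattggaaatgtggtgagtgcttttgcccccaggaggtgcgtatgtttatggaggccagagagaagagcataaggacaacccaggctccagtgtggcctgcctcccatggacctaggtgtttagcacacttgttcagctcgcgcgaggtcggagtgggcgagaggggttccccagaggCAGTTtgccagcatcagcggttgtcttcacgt
Prss40 promoter, chr1:34560944-34561193, minus strand: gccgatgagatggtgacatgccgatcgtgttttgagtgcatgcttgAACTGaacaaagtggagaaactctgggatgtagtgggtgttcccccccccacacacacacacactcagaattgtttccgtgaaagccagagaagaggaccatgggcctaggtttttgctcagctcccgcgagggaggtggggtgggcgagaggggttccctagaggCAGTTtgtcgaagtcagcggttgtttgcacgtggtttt

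Promoters of 17 described members were in the reference table. AACTG was found on either strand in 9 of them, Prss23, Prss37, Prss38, Prss39, Prss40, Prss42, Prss45, Prss53 and Prss56. A gene can have several windows. Counted per window, AACTG was in 15 of 36 windows of all members in the table (41.7%) and in 39.1% of all 32851 windows. TGACGT was in 0 of the 17 described members, in 2 of the 36 windows (5.56%) and in 6.47% of all windows, and TGACGTCA, which contains it, in 0 of the 36 and in 1.55%.

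The other members that led in late spermatocytes by the median were Prss56, Prss21, Prss47 and Prss48. Prss56, best known for its role in eye growth, was at 157 to 188 CPM (median 174) and rose by 0.86 ± 0.16 (log2) from pachytene. Prss21, testisin, a protease anchored in the sperm membrane, was at 130 to 183 CPM (median 163) after a rise of 1.87 ± 0.19. Both fell in later round and in elongating spermatids, where Prss56 reached 12.2 CPM and Prss21 17.8 CPM, below their macrophage levels of 62.6 and 54.2 CPM. Prss47 (median 23.1 CPM) rose by 1.09 ± 0.18. Prss48 was at a median of 22.1 CPM in late spermatocytes and 21.9 CPM in pachytene, and which of the 2 led changed with the library left out. Only 1 of 6 libraries was higher in late spermatocytes (exact sign-flip p = 0.1875). Pachytene led in UMIs per barcode and with the doubled UMI minimum, so the stage of Prss48 is not settled.

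Round spermatids had few leading members. Prss54, which is linked to the acrosome, was highest in later round spermatids, at 201 to 271 CPM (median 248), and rose in 3 steps in a row, by 1.99 ± 0.25 into late spermatocytes, 3.29 ± 0.21 into early round and 0.77 ± 0.18 into later round spermatids (log2). Its level of 9.87 to 28.1 CPM in late spermatocytes was still below the macrophage level of 50.1 CPM. It fell by 0.84 ± 0.18 in elongating spermatids. Prss53, polyserase-3, had 195 UMIs in all stages and stood at 0.756 to 1.84 CPM in later round spermatids, and it did not pass the filter on low counts.

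Elongating spermatids had the highest level of Prss55, Prss58, Prss52, Prss37, Prss51, Prss23os and Prss23, in each of the 6 libraries. Prss55 was at 361 to 438 CPM (median 398) against 121 to 173 CPM in later round spermatids (median 136) and 2.16 to 10.6 CPM in early round spermatids. Prss37 was at 217 to 333 CPM (median 265) against 70.1 CPM in later round spermatids. Prss58 was at 327 to 360 CPM (median 334) against 29.6, Prss52 at 248 to 334 CPM (median 282) against 41.3, and Prss51 at 157 to 183 CPM (median 178) against 9.69 in later round spermatids. In none of these members did the range in elongating spermatids overlap that of another stage.

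The sizes of the last steps differed between members. From early to later round spermatids Prss55 rose by 4.53 ± 0.26 and Prss37 by 4.59 ± 0.24 (log2), and into elongating spermatids by 2.35 ± 0.22 and 2.77 ± 0.20. Prss51 and Prss58 rose less at the first of these steps, by 2.39 ± 0.23 and 2.17 ± 0.20, and more at the second, by 4.78 ± 0.19 and 4.39 ± 0.19. Prss52 rose by 3.62 ± 0.25 and 3.50 ± 0.21. In UMIs per barcode the rise into elongating spermatids was smaller. It was 0.46 in Prss55, 0.76 in Prss37, 1.45 in Prss52, 2.35 in Prss58 and 2.77 in Prss51 (log2). The difference between the genes was not tested. Prss55 and Prss51 overlap on opposite strands and differed in this order. In stages before later round spermatids Prss55, Prss58, Prss52, Prss37, Prss51 and Prss23os stood at or below their macrophage level. In later round spermatids the medians of Prss51 (9.69 against 15.6 CPM in macrophages) and Prss58 (29.6 against 32.3 CPM) still were. The macrophage level is pooled over barcodes. With the germ cell stages pooled too, Prss51 was at or below its macrophage level in 6 stages and Prss58 in 5. Both stages of the first step were thus at or below it on either measure in Prss51, and by the median only in Prss58.

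**Figure D3:**
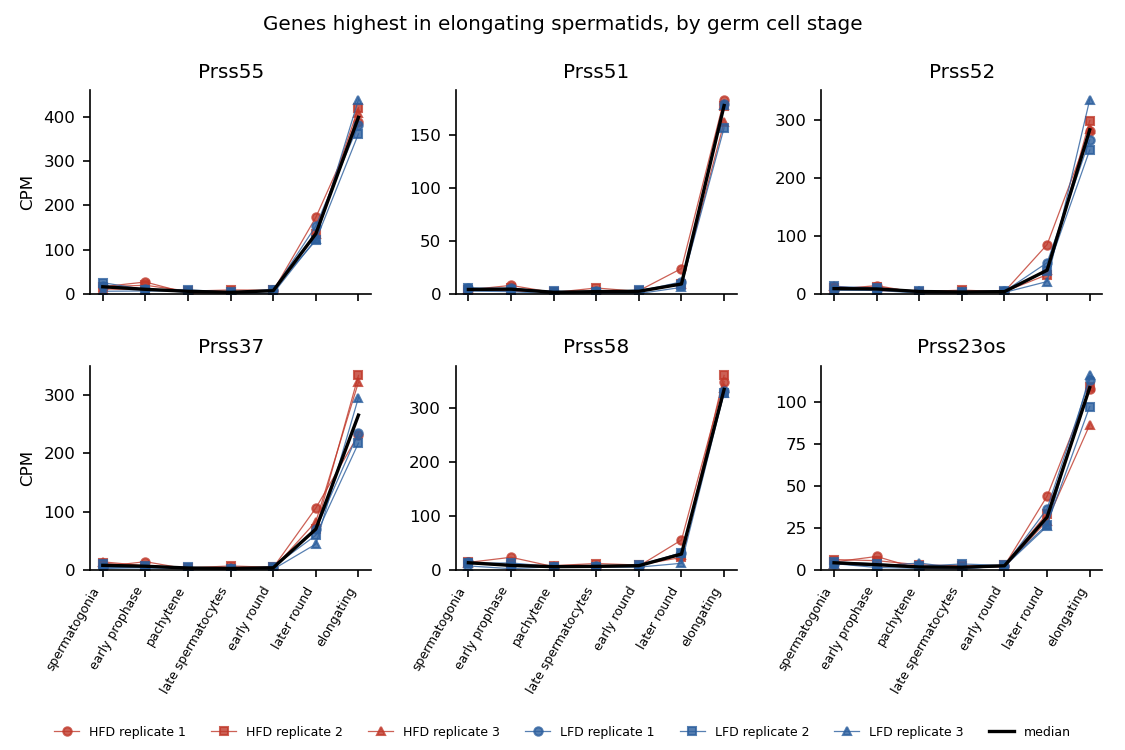
Level (CPM) of 6 Prss genes that were highest in elongating spermatids, 1 panel per gene, across 7 germ cell stages. Thin lines are the 6 libraries (red HFD, blue LFD as labelled) and the black line their median. In later round spermatids Prss55 stood at a median of 136 CPM and Prss51 at 9.69 CPM, and all lines rise to their top in elongating spermatids.

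Prss23 and its antisense partner had different places. Prss23os was at 86.4 to 116 CPM in elongating spermatids (median 109) and at 31.5 CPM in later round spermatids. Prss23, a secreted protease, was at 4.48 to 9.22 CPM in elongating spermatids, with a UMI in 7.58% of barcodes. Macrophages had 0 UMIs of it, which allows up to 3.13 CPM (3 UMIs in all macrophage barcodes together, counting error only). Its highest level was in stromal barcodes, at 71.0 to 302 CPM (median 102) and with a UMI in 41.9% of 167. That class held only 5 barcodes in HFD replicate 3. Prss35, known from the ovary, was the only member with at least 100 UMIs over all barcodes (165) but not in germ cells (54), and was also led by stromal barcodes, at 28.9 to 149 CPM (median 63.1).

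The remaining members were hardly seen. Prss1, Prss3 and Prss29 had 0 UMIs, and 12 had 1 to 99, among them Prss12 (99), Prss27 (72), Prss16 (48), Prss57 (47), Prss2 (42), Prss33 (41), Prss8 (33), Prss32 (17), Prss34 (5), Prss30 (3), Prss22 (2) and Prss28 (1). These include pancreatic trypsins (Prss1, Prss2, Prss3), prostasin (Prss8), neurotrypsin (Prss12) and the thymus-specific protease Prss16. Reads that fit several near-identical paralogs may have been left out by the counting, so a 0 in the trypsins is uncertain.

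Each stage was also compared with the stage before it across all genes. The steps were fitted by edgeR on sums per library and stage with the library as a block, and 23 of the 40 members passed the filter on low counts, not Prss53. Into early meiotic prophase 6 were higher and 6 lower, where 22.2% of other genes were called higher and 36.5% lower. Of the 6 lower, 5 (Prss39, Prss40, Prss54, Prss46 and Prss21) were at or below their macrophage level in both stages. Without LFD replicate 2 only 2 were lower in that step. At pachytene 10 were higher (29.3% of other genes) and 9 lower (35.9%), of which 3 and 6 were at or below the macrophage level in both stages. In late spermatocytes 8 were higher (30.4%) and 1, Prss44, was lower (34.3%). For early round spermatids the counts were 3 higher (31.7%) and 6 lower (26.2%), for later round spermatids 8 (30.3%) and 6 (31.9%), and for elongating spermatids 11 (34.4%) and 7 (33.2%). DESeq2 called 12 higher and 4 lower in elongating spermatids. With its size factors the median log2 change of all genes in that step was 0.45, against 0.07 by edgeR.

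Over all steps 21 of 81 member calls were between stages whose median levels were both at or below the pooled macrophage level. For Prss58 in later round spermatids this holds by the median only. That level can overstate the background of deeper stages, so whether these calls are changes in expression was not settled. Of the 81, 6 had the opposite sign in UMIs per barcode. These were Prss23os, Prss54 and Prss41 at pachytene and Prss39, Prss40 and Prss44 in elongating spermatids. The rise of Prss50 in elongating spermatids (log2 2.06 ± 0.43) ended at a median of 2.08 CPM. The rise of Prss39 and Prss40 at pachytene (1.43 ± 0.25 and 1.18 ± 0.25) turned into a fall with the stricter gate, and both levels were below that in macrophages.

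Other genes of protease biology were set beside the family. Of 33 other genes of trypsin-fold serine proteases, 7 had at least 100 UMIs in germ cells. Acr, which codes for acrosin, the main protease of the acrosome, was at a median of 216 CPM in late spermatocytes, 255 CPM in early round and 252 CPM in later round spermatids. Tmprss12 was highest in pachytene, at 49.0 CPM, and the granzyme gene Gzmn in later round spermatids, at 134 CPM. Of the 6 tested in late spermatocytes 3 rose and 2 fell, with a median log2 change of 0.86 against 0.01 over all genes tested.

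Among 21 serine protease inhibitors, 10 reached 100 UMIs. Spink2, the acrosomal trypsin inhibitor, was at 1371 CPM in pachytene and 2422 CPM in late spermatocytes, and Acrbp, the proacrosin-binding protein, at 358 and 698 CPM. Of 9 tested by edgeR, 3 rose and 1 fell in late spermatocytes (median log2 change 0.38). In elongating spermatids 2 rose and 2 fell (0.34, against 0.07 over all genes), a step where the direction can depend on the scale. Serpine2 and Spint1 were highest in spermatogonia, at 21.3 and 44.7 CPM, as was Prss36.

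All 16 genes of ADAM3 maturation and sperm migration reached 100 UMIs. Adam3 itself was at 754 CPM in late spermatocytes and 768 CPM in early round spermatids, before the highest levels of Prss37 and Prss55. Only 2 of the 16 had the stage of Prss37 and Prss55, elongating spermatids, as their highest. These were Calr3 (216 CPM) and Pmis2 (460 CPM, against 451 CPM in later round spermatids). Another 5 were highest in later round spermatids, among them Pdilt (335 CPM) and Ace (350 CPM), and 4 in late spermatocytes. Tex101 (1964 CPM) and Ly6k (995 CPM) were highest in early meiotic prophase. In elongating spermatids edgeR called 9 of 16 higher and 3 lower. The median log2 change was 0.55, against 0.55 for the Prss genes tested and 0.07 over all genes. At this step the direction can depend on the scale, as for Prss39 and Prss40. In median CPM Adam3 went from 632 in later round to 491 in elongating spermatids. Cmtm2a went from 1231 to 564, while Calr3 went from 101 to 216.

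Whether the diet altered the family was asked of whole libraries and of each stage. Over all barcodes the Prss genes made up 1452, 1202 and 1228 CPM in the libraries labelled HFD and 1444, 1287 and 1450 CPM in those labelled LFD. The means of 1294 ± 137 and 1394 ± 92.5 CPM (SD, n = 3) overlapped, with an exact permutation p of 0.40 (two-sided, smallest possible 0.10). By edgeR 0 of 27 members tested were called in whole libraries, where 0.0% of 20700 other genes were called. At an unadjusted p under 0.05 the counts were 0 members and 471 of all 20727 genes, and DESeq2 called 0 members. Member changes ran from -0.54 to 0.31 (log2), with a median of 0.06 against 0.02 over all genes and a median SE of 0.18. In bulk sums of this kind fewer cells of a stage and less RNA per cell cannot be told apart.

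**Figure D4:**
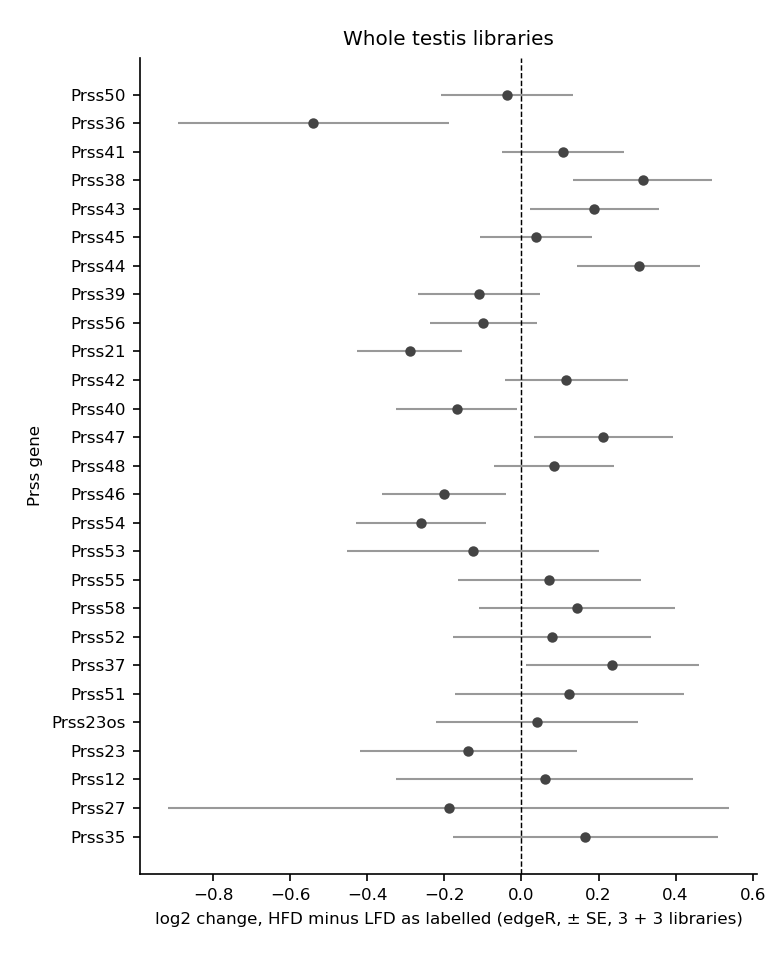
Difference between the libraries labelled HFD and LFD for the 27 Prss genes tested in whole libraries, as log2 change with SE bars (edgeR, 3 libraries per diet), ordered by stage of highest level. The points lie between -0.54 for Prss36 and 0.31 for Prss38, and none passed the adjusted test.

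The smallest p in whole libraries was that of Prss21. It was at 68.3, 62.9 and 66.1 CPM in the libraries labelled HFD. In those labelled LFD it was at 74.0, 88.3 and 90.2 CPM (log2 -0.29 ± 0.14, edgeR adjusted p = 0.986). Between the replicate 1 libraries the difference was -0.12 and among the other 4 it was -0.47. Prss44 (0.30 ± 0.16) and Prss38 (0.31 ± 0.18) followed, with the same adjusted p.

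Within stages the same test called 0 members in all 7, and 0.0% of other genes in each. DESeq2 called 0 members too. At an unadjusted p under 0.05 edgeR had 3 of 20 members in early meiotic prophase (3.16% of all genes), 2 of 20 in pachytene (2.15%), 3 of 20 in late spermatocytes (3.32%), 3 of 21 in early round (7.16%) and 2 of 22 in later round spermatids (2.74%). It had 0 of 21 in spermatogonia (0.753%) and 0 of 21 in elongating spermatids (0.550%). Prss50 in early meiotic prophase was at 198, 176 and 110 CPM in the libraries labelled HFD and at 268, 216 and 266 CPM in those labelled LFD (log2 -0.59 ± 0.22, edgeR adjusted p = 1.00). In the same stage Prss55 (0.93 ± 0.38) and Prss21 (-0.77 ± 0.35) followed, both below their macrophage levels.

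In pachytene Prss54 (-0.98 ± 0.33), Prss40 (-0.97 ± 0.34) and Prss46 (-0.46 ± 0.24) had the smallest p, all at levels below those in macrophages. In late spermatocytes they were Prss55 (0.96 ± 0.37, again below macrophages), Prss21 (-0.30 ± 0.13) and Prss41 (-0.48 ± 0.21). Prss41 was at 8.49, 9.16 and 7.40 CPM against 12.2, 11.6 and 10.9 CPM there.

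Early round spermatids had the smallest p of any stage, for Prss56 (log2 -0.34 ± 0.12, edgeR adjusted p = 0.637). Its levels were 115, 92.2 and 93.1 CPM in the libraries labelled HFD and 128, 119 and 130 CPM in those labelled LFD. Prss21 (-0.34 ± 0.14) and Prss38 (-0.46 ± 0.21) came next. In later round spermatids Prss37 was at 106, 70.7 and 82.9 CPM against 69.5, 59.5 and 44.4 CPM (0.55 ± 0.21, edgeR adjusted p = 0.946), ahead of Prss21 (-0.35 ± 0.16) and Prss51 (0.67 ± 0.37). Prss51, below its macrophage level in the median library, stood at -0.016 without HFD replicate 1. Spermatogonia had Prss56 (-0.66 ± 0.44), Prss36 (-0.88 ± 0.60) and Prss42 (-0.55 ± 0.46), of which Prss56 and Prss42 turned to 0.13 and 0.18 without LFD replicate 2. Both were below their macrophage levels in the median library. In elongating spermatids they were Prss46 (-0.46 ± 0.27), Prss42 (-0.37 ± 0.33) and Prss48 (-0.34 ± 0.35), all below their macrophage levels.

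One library decided the calls of 3 stages. Without HFD replicate 1, edgeR called 4 of 19 members in pachytene lower in the libraries labelled HFD (Prss39, Prss40, Prss56 and Prss21). There 3.88% of other genes were called. It called 3 of 20 in late spermatocytes (Prss54, Prss46 and Prss21), with 9.01% of other genes. In early round spermatids it called 4 of 21 (Prss39, Prss56, Prss45 and Prss21), with 10.3%. These fits keep LFD replicate 1, which stood apart together with HFD replicate 1, on the LFD side only. Its part in the calls was not tested. Prss21 was in all 3 sets, at -1.13 ± 0.19, -0.42 ± 0.10 and -0.58 ± 0.09. The median levels of Prss21, Prss39 and Prss40 in pachytene and of Prss54 in late spermatocytes were below those in macrophages. Without any other single library 0 members were called in each of the 7 stages.

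The replicate 1 libraries held more of the late members in whole sums, whatever their diet label. Of the 7 members highest in elongating spermatids, 6 were higher in both replicate 1 libraries than in each of the other 4, by a ratio of means of 1.39 (Prss37) to 1.74 (Prss51). Prss55 was at 127 and 123 CPM against 76.2 to 92.8 CPM. Within elongating spermatids the same ratio of the 6 members ran from 0.80 to 1.08. None of the 17 members with another stage of highest level was higher in both. The share of elongating spermatid barcodes given above moved with these sums, and its part in them was not tested.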

How the data were processed

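Per the labels and the methods, testes were dissociated and run on the 10x Genomics 3′ platform, whose kit version differs between these sources. The deposited matrices hold raw UMI counts per gene and barcode, which the authors made with Cell Ranger 6.0.1 on mm10 (GRCm38). The study's filter (200 to 40000 genes) removed 0 barcodes. Libraries were grouped by their titles, and no 2 agreed within sampling noise (chi-square per degree of freedom at least 21.4). The scoring rule for the marker lists was set after seeing the data: at least 5 marker UMIs, and an enrichment of 2 for germ cells or 20 for somatic cells. No doublets were removed. As alternatives, barcodes that also passed the gate of a non-neighbouring class were left out, the enrichment was raised to 3, the UMI minimum to 10000, and 12392 barcodes were clustered (Leiden, 2000 genes, 30 components, resolution 0.3; leidenalg 0.10.2, igraph 0.11.9).

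UMI counts were summed per library and stage and tested with edgeR 4.0.16 (R 4.3.3; quasi-likelihood, TMM, default filter), with DESeq2 1.42.0 as an alternative. An adjusted p (Benjamini-Hochberg over all genes) under 0.05 was a call, and SEs came from F. Fits were tested on simulated data. CPM divides by all UMIs of the sum. Sign-flip tests used log2(CPM + 1). Members with at least 100 UMIs in germ stages were described, and per diet test the 3 with the smallest p were named. Members, lists and rules were chosen with earlier results of these data known. Protein sequences were not analysed here. Python 3.11.15, numpy 2.4.6, scipy 1.17.1 and pandas 2.3.3 were used.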

Additional observations from a re-analysis of the deposited data

Results flagged for a closer look

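Prss41 in early meiotic prophase stood at 39.3 CPM in LFD replicate 3, against 24.0 to 27.8 CPM in the other 5 libraries. The gap was 0.751 of the whole range, above Dixon's 95% critical value for 6 samples. That library had 38 barcodes in this stage. It was the only value past the limit in 48 comparisons, the highest and the lowest library of each described member at its leading stage, and chance gives about 1 in 20 groups.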

How the results depend on the processing

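Over the step tests, 604 of 616 recomputed log2 changes of members that were called with a change of at least 1 kept direction and call, 10 lost the call and 2 reversed: with the stricter gate Prss39 (-0.38) and Prss40 (-0.74) fell at pachytene. The number of members lower in early meiotic prophase ran from 2 to 6 with 1 library left out (2 without LFD replicate 2) and that lower in late spermatocytes from 1 to 2 (2 without LFD replicate 2), and it was 2 with no filter on low counts. DESeq2 gave 4 lower in elongating spermatids. With 1 library left out, members called by diet ran from 0 to 4 in pachytene, 0 to 3 in late spermatocytes and 0 to 4 in early round spermatids, all from leaving out HFD replicate 1. Of the diet changes named, 3 reversed with 1 library left out: Prss56 in spermatogonia ran from -0.84 to 0.13 and Prss42 there from -0.74 to 0.18 (both positive without LFD replicate 2), and Prss51 in later round spermatids from -0.016 (without HFD replicate 1) to 0.97. The cause of these changes was not tested. The replicate block left 0 members called in whole libraries and in every stage. Same-numbered libraries of the 2 diets correlated in their deviations at r = 0.513, -0.051 and 0.176 over 16246 genes, so the numbers were not taken as pairs. The leading stage stayed for 22 members with the stricter gate (Prss50 and Prss53 moved), 23 with the doubled minimum, 24 without possible doublets and 22 to 24 with 1 library left out. Leiden clusters gave no pachytene cluster, and 19 of the 21 members that could keep their stage did. Diet fits of stages with under 20 barcodes in a library under a changed gate were not run. Depth was lowest for Prss53, Prss36 and Prss23, at 195, 330 and 444 UMIs in germ stages.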
